A study of Mus musculus with 12 samples.

Results

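RNA that sediments above the polysomes was compared before and after hormonal induction of 3T3-L1 cells, a line of mouse embryo fibroblasts that can be turned into fat cells. The comparison uses 6 of the 12 arrays, 3 of non-polysomal RNA at 0 h and 3 at 6 h, and the other 6 carry polysomal RNA of the same times. The 0 h cells were confluent, untreated and grown with newborn bovine serum. The 6 h cells had been moved to medium with fetal bovine serum, 0.5 mM isobutylmethylxanthine (IBMX), 1 µM dexamethasone and 5 µg/ml insulin. The series holds no untreated group at 6 h. The hormones, the change of serum and medium, and the elapsed time therefore cannot be told apart. All lysates contained cycloheximide, which holds ribosomes on mRNA, and gradient fractions 5 to 7 were pooled as the non-polysomal part. Groups are named by hours after induction, because the labels and the methods number the days differently. A pool of gradient fractions of a whole culture does not show whether fewer cells carry an mRNA or each cell carries less of it.

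A cytoplasmic mRNA without ribosomes sediments as a free ribonucleoprotein particle, and it moves down the gradient as ribosomes load onto it. The non-polysomal pool therefore holds mRNAs that are new, stored, poorly initiated or bound for decay, together with noncoding RNAs. Its content for a gene can change because the total amount of the mRNA changes or because its ribosome loading changes, and the polysomal pool of the same lysate is the reference for separating these. IBMX raises cAMP by blocking phosphodiesterases, dexamethasone activates the glucocorticoid receptor, and insulin acts through PI3K, Akt and mTOR. In preadipocytes these agents start a transcription factor cascade led by C/EBP proteins and, later, a return to the cell cycle.

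The 75th percentile of probe intensity lay at 241 to 269 on the 0 h arrays and 253 to 281 on the 6 h arrays, and 55.7% to 60.8% of the probes of an array were well above background by the scanner software's own test. Arrays were scaled by 10 spike-in transcripts, RNAs added to every sample in proportion to its RNA, so a signal is per amount of RNA and not per cell. Before scaling, the 10 spike-ins differed by -0.043 to 0.11 on the log2 scale between 6 h and 0 h. At 0 h the median log2 signal over probes was 4.28 ± 0.14 (SD, n = 3). At 6 h it was 4.17 ± 0.058 (SD, n = 3). An exact two-sided permutation test of this difference gave p = 0.3, and 3 arrays against 3 cannot go below 0.1. Across 40808 probes, which are not independent replicates, Pearson's r was 0.985 to 0.990 between arrays of the same time and 0.964 to 0.970 between the times. Precision is limited by there being 3 arrays a group.

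The cells were checked against marker genes. All 12 fibroblast or preadipocyte markers, among them Col1a1, Pdgfra, Thy1 and Dlk1, were well above background on all 6 arrays. Of 6 macrophage markers 3 reached that level on all 6 arrays, of which Cd14 and Csf1r rose by 1.41 and 1.04 on the log2 scale, and the defining Ptprc, Adgre1 and Itgam reached it on none. The log2 of the summed signal of the macrophage list was 9.00 to 9.10 at 0 h and 10.10 to 10.19 at 6 h. Most of this sum came from Cd14, with mean log2 signals of 8.45 and 9.85, whereas Lyz2 changed by -0.26 and was not called. The part of these genes in the results was not tested. Of 6 epithelial markers Krt5, Krt8 and Krt14 reached the level on all 6 arrays and Epcam, Cdh1 and Krt18 on none, and none of the 6 passed limma's test. Of 5 endothelial markers Pecam1, Kdr, Tek and Tie1 reached it on no array and Cdh5 on 1 array at 0 h. Of 5 skeletal muscle markers Des and Myod1 reached it on all 6 arrays, and Des fell by 1.30 while Myod1 rose by 0.35. Of 6 mature adipocyte markers Fabp4, Adipoq, Cidec and Plin1 reached it on all 6 arrays and Lep and Cfd on none. Fabp4 was bright at both times, with mean log2 signals of 14.31 and 14.22, and Adipoq rose by 0.58.

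Differences are given as 6 h minus 0 h on the log2 scale, with the standard error (SE) and the adjusted p of limma, a linear model fitted to all probes with a moderated estimate of the spread. A probe was called when its adjusted p was below 0.05. Among 41156 probes with a difference, 8490 rose (20.6%) and 8086 fell (19.6%). More than 2-fold, 3343 rose (8.12%) and 3336 fell (8.11%), and 3311 and 3287 of these kept their sign on each of the 3 slides. Taking for each of 18212 named genes the probe with the highest mean signal, 4505 genes rose (24.7%) and 4608 fell (25.3%), of which 1650 (9.06%) and 1839 (10.1%) changed more than 2-fold. These shares are the background against which the gene groups below are to be read, and the median difference over all genes was 0.00, or -0.14 to 0.11 within single slides. Scaling the arrays to their 75th percentile instead of the spike-ins lowered the median over genes to -0.06 and gave 4465 rises and 5291 falls.

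By fitted differences, 398 genes rose and 364 fell more than 4-fold, and 60 rose and 10 fell more than 16-fold. Fitted differences of probes near the background at one time are not exact. Among genes well above background on all 6 arrays, 310 rose and 224 fell more than 4-fold, and 37 rose and 2 fell more than 16-fold.

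**Figure D1:**
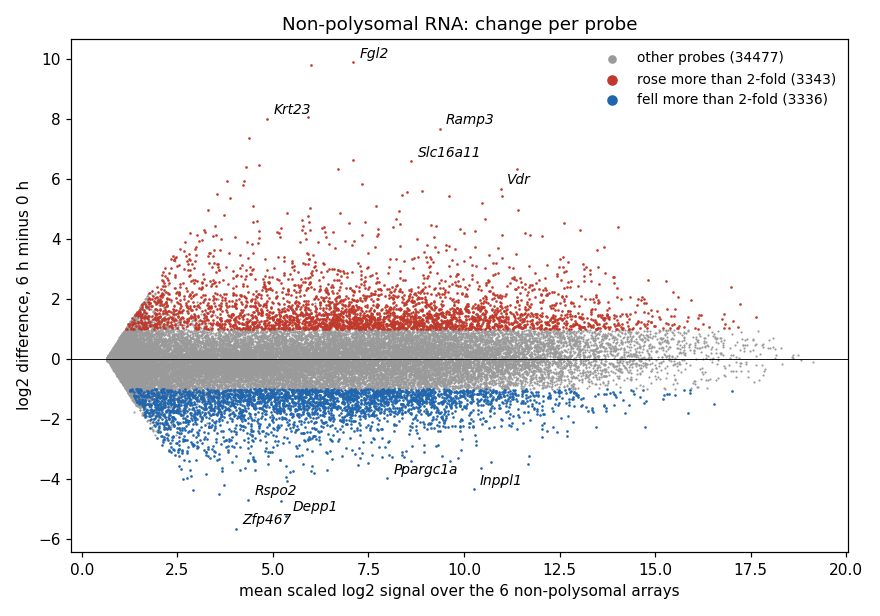
Log2 difference (6 h minus 0 h) of each probe against its mean scaled log2 signal over the 6 non-polysomal arrays. The 3343 probes that rose more than 2-fold are red and the 3336 that fell are blue, and probes close to the background on one side, such as those of Fgl2 at 0 h and Zfp467 at 6 h, have a bound and not an exact difference.

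Among the 14 largest rises were genes for secreted and matrix proteins, receptors and transporters. Fgl2, a secreted fibrinogen-like protein, had log2 signals of 1.96, 2.60 and 1.89 at 0 h and 12.05, 12.04 and 12.08 at 6 h. It was not well above background on any 0 h array, so only a bound can be given, at least 560-fold higher at 6 h (adjusted p = 3.9e-09). Prg4, which encodes lubricin, and Krt23, a keratin, were likewise below that level at 0 h and rose at least 130-fold and at least 61-fold. Ramp3, an accessory subunit of calcitonin family receptors, was measured at both times, at 5.58, 5.57 and 5.44 before and 13.25, 13.20 and 13.18 after induction, a 205-fold rise (7.68 ± 0.071, adjusted p = 1.7e-11). For Ramp3 the arrays of each time lay close together and the times did not overlap.

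Vdr, the vitamin D receptor, rose 51.4-fold from a mean of 8.12 to 13.80, Slc16a11, a monocarboxylate transporter family member, 97.1-fold, Syt12, a synaptotagmin, 99.9-fold and Alpl, tissue-nonspecific alkaline phosphatase, 82.1-fold. These 4 genes were well above background on all 6 arrays. Further rises of this group started from probes not well above background on any 0 h array. They were Csta1 (at least 30.8-fold) and Cstdc4 (at least 23.6-fold) of the cystatin A family of protease inhibitors, Dio2, the deiodinase that activates thyroid hormone (at least 18.2-fold), Mt4, a metallothionein (at least 14.2-fold), and Fam222a (at least 10.2-fold). Csta1 and Cstdc4 have close paralogues, so their probes may share signal.

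The 14 largest falls included regulators of preadipocyte fate. Zfp467, a zinc finger protein, had signals of 6.90, 6.80 and 6.90 at 0 h and was not well above background on any 6 h array, a fall of at least 14.8-fold (adjusted p = 7.8e-07). Gata3, a transcription factor that keeps cells in the preadipocyte state, went from 5.86, 5.82 and 5.81 to below that level on all 3 arrays, at least 7.2-fold lower. Rspo2, a secreted enhancer of Wnt signalling, fell at least 13.1-fold in the same way.

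Inppl1, which encodes the lipid phosphatase SHIP2, read 12.43, 12.47 and 12.39 at 0 h and 8.06, 8.06 and 8.15 at 6 h, and so fell by 4.34 ± 0.11 with no overlap between the times. Ppargc1a, a coactivator of oxidative metabolism, fell by 3.98 ± 0.11 from 10.03, 9.96 and 9.94 to 6.16, 5.87 and 5.97. Depp1, a FOXO target, fell by 5.23 ± 0.16 and Fam13c by 3.92 ± 0.18. At 6 h the Depp1 probe read 2.75, 3.11 and 2.34, close to the background, and was well above it on 1 of 3 arrays. The size of the Depp1 fall is therefore not exact. The list was completed by Rerg and Mettl7a1 and by Adamts5, Dusp8, Rtn4r, Arl11 and Adcy7. Of these, the last 5 were not well above background on any 6 h array. Arl11 and Adcy7 were the least even of them, with 0 h signals of 6.24, 4.31 and 3.39 and of 6.67, 4.63 and 3.09, and their falls of at least 3.18-fold and at least 3.53-fold rest on these spread values. With the replicate block on the 6 arrays the fall of Adcy7 had an adjusted p of 0.065 in limma.

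**Figure D2:**
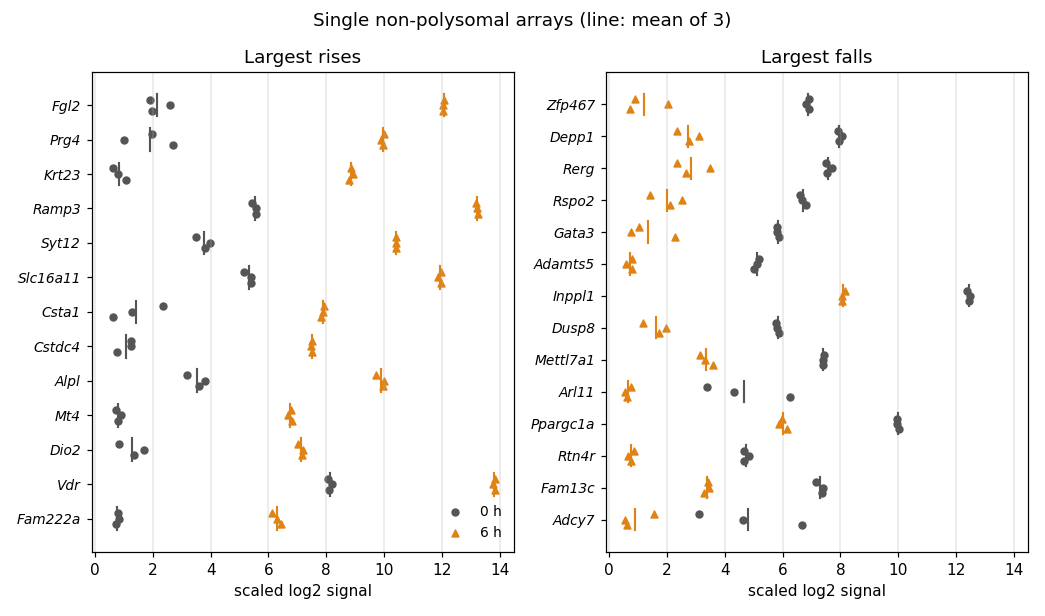
Scaled log2 signal of the genes described among the largest rises and the largest falls on each non-polysomal array (grey circles 0 h, orange triangles 6 h, line the mean of 3 arrays). The times do not overlap for any gene shown, and the 0 h arrays spread widely for Arl11 (3.39 to 6.24) and Adcy7 (3.09 to 6.67).

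The response genes of the added agents gained non-polysomal signal in part. Of 34 genes on a list of cAMP and CREB targets, 23 rose and 8 fell, 17 and 4 of them more than 2-fold, with a median difference of 1.00 (0.93 to 1.08 within slides). Dusp1, a phosphatase that switches off MAP kinases, rose 18.4-fold (4.20 ± 0.071, adjusted p = 6.4e-10). The cAMP phosphodiesterases Pde4b and Pde4d rose 18.0-fold and at least 16.9-fold, whereas Pde4a of the same family fell by 1.52 ± 0.087. The orphan nuclear receptor Nr4a1 went from 11.67, 11.66 and 11.62 to 14.85, 14.67 and 14.69, and Maff, a small Maf factor, rose 13.0-fold. Besides Ppargc1a, itself a known CREB target, Gadd45a, a DNA damage-inducible gene, and Adamts1, a matrix protease, fell by 2.26 and 1.53.

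The cAMP response element, TGACGTCA, was searched for on both strands in RefSeq promoter windows reaching from 250 bases before to 50 bases after a gene's start (assembly GRCm38.p6). It was found in 2.46% of 17991 windows of all tested genes, in 3.05% of the windows of genes that rose more than 2-fold and in 1.90% of those that fell. In the cAMP list 3 of 41 windows held it. Windows of Dusp1 (chr17:26508562-26508661, minus strand) and Maff (chr15:79347420-79347519, plus strand) are shown because these are the highest members with the element upstream of the start, in capitals.
Dusp1: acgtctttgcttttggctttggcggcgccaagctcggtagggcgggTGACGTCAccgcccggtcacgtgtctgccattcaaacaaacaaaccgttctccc
Maff: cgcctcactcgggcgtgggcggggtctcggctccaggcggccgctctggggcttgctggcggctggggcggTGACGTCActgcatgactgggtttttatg
The element begins 143 bases before the start in Dusp1 and 29 bases before it in Maff. A match of these letters is a description of the sequence and shows no binding.

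Of 32 glucocorticoid response genes, 18 rose and 10 fell, with 16 and 6 past 2-fold and a median of 1.00 (0.89 to 1.20 within slides). Fkbp5, a cochaperone of the glucocorticoid receptor and a classical target, rose 10.3-fold, Errfi1, a feedback inhibitor of the EGF receptor, 17.4-fold and Lcn2, a lipocalin, 8.59-fold. Angptl4, Bcl6 and Pdk4, which are also known as targets of the receptor, fell by 2.56, 2.00 and 1.76. Angptl4 and Pdk4 serve lipid and fasting metabolism and are targets of other factors too.

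Immediate early genes rose in 22 of 35 cases and fell in 7, with a median of 0.82 (0.70 to 0.99 within slides). At 6 h the AP-1 gene Fosl1 stood 43.6-fold above 0 h, and Ccn2, a matricellular growth factor, 20.5-fold. Egr1, which is induced and lost again within a short time after a stimulus, was lower at 6 h by 2.22 ± 0.12, and Klf6 by 1.53.

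Among 38 chemokines, cytokines and growth factors 23 rose and 7 fell (15 and 4 past 2-fold, median 0.67). Il11 rose 45.1-fold, and the EGF receptor ligands Ereg and Hbegf rose 24.8-fold and 9.74-fold. Pdgfb fell at least 2.59-fold and Gdf15, a stress-induced cytokine, by 1.86. Of 43 Wnt, TGF-beta and BMP genes 22 rose and 11 fell (median 0.29). Among the rises were the feedback inhibitors Smad7 (7.06-fold) and Skil (6.57-fold) and the BMP target Id2 (8.43-fold), and among the falls Wnt6, at least 5.4-fold, and Tgfb2 by 1.96.

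Early adipogenic transcription factors went both ways, with 8 of 34 up, 17 down and a median of -0.21. The inducers Klf5 and Cebpb rose: Klf5 went from 5.78, 5.57 and 5.64 to 9.72, 9.85 and 9.79, which is 17.4-fold, and Cebpb from 9.21, 9.55 and 9.33 to 12.23, 12.14 and 12.17, which is 7.05-fold. Klf9, a glucocorticoid-induced factor, rose 3.84-fold and Foxo1 2.44-fold. Besides Zfp467 and Gata3, the liver X receptor gene Nr1h3 fell by 2.06 and Ddit3, an inhibitory C/EBP, by 1.77. Genes of the mature adipocyte showed no shared direction, since 9 of 24 rose, 5 fell and the median was 0.01 (-0.05 with 75th percentile scaling). The lipid synthesis enzymes Dgat2 and Fasn rose 3.97-fold and 2.82-fold, and the lipid droplet proteins Plin2 and Plin4 fell by 2.19 and 2.02.

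Extracellular matrix genes gained non-polysomal signal in 32 of 48 cases and lost it in 7, with a median of 0.59 (0.48 to 0.66 within slides). Tnc, tenascin C, rose 19.8-fold, the basement membrane collagens Col4a1 and Col4a2 7.21-fold and 5.33-fold, and Timp1, an inhibitor of matrix proteases, 5.24-fold. Bgn, biglycan, and Mmp14, a membrane-bound matrix protease, fell by 1.24 and 1.19. Of 31 genes of the actin cytoskeleton and targets of serum response factor, 19 rose and 6 fell (median 0.33, and 0.05 after quantile normalization). Vcl, vinculin, rose 6.27-fold, Actn4, an actinin, rose 2.91-fold, Ankrd1 fell by 2.51 ± 0.38 and Tagln, transgelin, by 1.01.

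Genes for building ribosomes were the group with the largest share of rises among the 30 lists. Of 48 genes of ribosome biogenesis and RNA polymerase I, 43 rose (89.6%) and 3 fell, 33 and 1 of them more than 2-fold. Their median difference was 1.30, and 1.26 to 1.41 within slides. Gnl3, the nucleolar GTPase nucleostemin, read 6.87, 7.00 and 6.87 at 0 h and 9.35, 9.26 and 9.39 at 6 h. The rRNA processing factors Rrp1b, Rrp12 and Grwd1 rose 6.10-fold, 4.55-fold and 4.51-fold. The polymerase I subunits did not move together, since Polr1b and Polr1a rose by 2.04 and 0.88 while Polr1c, which RNA polymerase III shares, fell by 1.00 ± 0.074. Ubtf, the upstream binding factor of polymerase I, fell by 0.49 and nucleolin, Ncl, by 0.27 (adjusted p = 0.033 in limma), a call lost, for one, with the replicate block on the 6 arrays.

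The E-box CACGTG, the motif that Myc and the clock factors bind, was searched for in the same windows and on both strands. It was present in 8.56% of the windows of all tested genes, in 10.2% for genes that rose and 9.36% for genes that fell more than 2-fold. In the ribosome biogenesis list 11 of 53 windows (20.8%) held it, and in a list of clock genes 6 of 21 (28.6%). The windows shown are those of the members past 2-fold with the largest differences that hold an E-box upstream of the start, which is in capitals: Nop2 (chr6:125131777-125131876, plus strand) and Imp4 (chr1:34439662-34439761, plus strand), which serve rRNA processing, and Cry1 (chr10:85185061-85185160, minus strand), a repressor of the clock.
Nop2: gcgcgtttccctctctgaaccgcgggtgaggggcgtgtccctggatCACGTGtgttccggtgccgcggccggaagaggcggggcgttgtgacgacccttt
Imp4: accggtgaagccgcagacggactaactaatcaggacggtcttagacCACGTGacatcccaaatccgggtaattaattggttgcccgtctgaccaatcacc
Cry1: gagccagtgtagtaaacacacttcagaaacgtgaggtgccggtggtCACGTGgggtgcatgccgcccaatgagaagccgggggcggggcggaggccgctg
Nop2 rose by 1.69, Imp4 by 1.16 and Cry1 by 2.57 in the non-polysomal fraction.

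The mRNAs of the translation apparatus itself divided. Ribosomal protein mRNAs and those of several translation factors begin with a terminal oligopyrimidine (TOP) tract, through which mTOR controls their loading with ribosomes. Of 81 cytosolic ribosomal protein genes 50 rose (61.7%) and 5 fell, 6 and 0 past 2-fold, with a median of 0.37 (0.34 to 0.40 within slides). With quantile normalization, which forces all arrays to the same distribution, the counts were 33 and 22 and the median was 0.05. The highest were Rpl41 (2.66-fold), Rps26 (2.35-fold) and Rpl39 (2.27-fold), and the lowest was Rpl21, which fell by 0.84 ± 0.22. Ribosomal protein genes have many processed copies in the genome, so single probes can carry their signal too.

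Of 25 translation factors and other TOP mRNAs 2 rose and 18 fell (72%), 9 of the falls past 2-fold, with a median of -0.40 (-0.43 to -0.38 within slides). Eef2, the elongation factor of translocation, read 15.34, 15.46 and 15.51 at 0 h and 13.97, 13.93 and 13.98 at 6 h, a fall by 1.47 ± 0.071 (adjusted p = 1.3e-07). Vim, vimentin, fell by 1.48, Npm1, nucleophosmin, by 1.25, Impdh2, the rate-limiting enzyme of guanine nucleotide synthesis, by 1.19 and Eif4b, a cofactor of the eIF4A helicase, by 1.09. Tpt1 and Eef1b2 rose 1.42-fold and 1.23-fold, and Eef1b2 was at -0.01 after quantile normalization.

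Of 31 translation initiation factors without a TOP start, 20 rose and 2 fell, with a median of 0.47 (0.43 to 0.75 within slides). After quantile normalization 17 rose and 7 fell with a median of 0.21, and 5 fell with 75th percentile scaling. Eif1, a factor of start codon choice, the cap-binding protein Eif4e and Eif2b1, a subunit of the nucleotide exchange factor, rose 2.78-fold, 2.73-fold and 2.73-fold. Eif3c and Eif3m, subunits of eIF3, fell by 0.99 and 0.96. Of 23 aminoacyl-tRNA synthetase genes and partners 10 rose and 6 fell (median 0.16), from Rars at 2.99-fold up to Qars, which fell by 1.56.

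Cell division genes lost non-polysomal signal. Of 24 mitosis genes 0 rose and 22 fell (91.7%) by limma's adjusted p, 19 of them more than 2-fold, with a median of -1.42 (-1.39 to -1.38 within slides). Ccnb2, cyclin B2, went from 11.02, 11.08 and 10.92 to 8.82, 8.77 and 8.74, and Cenpf, Nusap1 and Ccna2, which act at the kinetochore, on spindle microtubules and as cyclin A2, fell by 2.16, 2.01 and 1.87. The members not called were Bub1, with a difference of 0.00, and Ttk, which was dim. Of 35 DNA replication genes 3 rose and 26 fell (median -0.65). Tk1, thymidine kinase, fell by 2.31 and Gins1 by 1.88, while Fen1, the flap endonuclease, Cdc6, which loads the replicative helicase, and Pcna rose 2.73-fold, 2.36-fold and 1.32-fold. Of 24 G1 cyclins, their kinases and inhibitors 5 rose and 14 fell (median -0.58). The inhibitors Cdkn2b and Cdkn2a fell by 2.38 and 1.57, and Ccnd3, cyclin D3, and Cdk6 rose 2.31-fold and 2.24-fold.

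Interferon-stimulated genes fell in 23 of 30 cases and rose in 3, with 17 falls past 2-fold and a median of -1.27 (-1.33 to -1.14 within slides). Ifit2, an antiviral RNA-binding protein, read 7.24, 7.39 and 7.25 at 0 h and 4.05, 3.75 and 4.36 at 6 h. Oasl2, an oligoadenylate synthetase-like protein, fell by 2.55 and Irf1, an interferon regulatory factor, by 2.39. Trim25, a ubiquitin ligase of the same pathway, rose 2.72-fold.

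Cholesterol and fatty acid synthesis genes fell in 25 of 36 cases and rose in 6, with a median of -0.75 (-0.82 to -0.66 within slides). In the mevalonate pathway Fdps read 11.75, 11.73 and 11.70 at 0 h and 9.05, 8.79 and 8.80 at 6 h, and Mvd fell by 2.21. Nsdhl, another gene of cholesterol synthesis, fell by 1.82. Pmvk, which acts in the mevalonate pathway, rose 6.84-fold. FOXO factors and insulin-repressed genes fell in 14 of 24 cases and rose in 4 (median -0.77). Fbxo32, a ubiquitin ligase of muscle atrophy, Pik3ip1, an inhibitor of PI3K, Sesn3 and Irs1, the insulin receptor substrate, fell by 2.56, 2.29, 2.24 and 2.23. Bnip3 rose 4.13-fold.

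Stress gene lists were mixed. Of 31 genes of the unfolded protein and integrated stress responses 14 rose and 11 fell (median -0.04). The rises included the endoplasmic reticulum factors Manf (6.17-fold), Xbp1 (5.79-fold) and Hspa5 (4.54-fold), and the falls included Chac1, Trib3 and Ddit3 (by 3.02, 2.22 and 1.77), which act downstream of ATF4. For Chac1 only 1 of the 3 arrays at 0 h was kept, the others being marked as outliers. Of 31 cytosolic chaperones 14 rose and 9 fell (median -0.02), with Hspb1 (8.51-fold), Hsph1 (6.31-fold) and Bag3 (4.24-fold) highest and Hsp90ab1, which fell by 1.79, lowest. The medians of both lists changed sign under other processing, to 0.24 and 0.15 when the mean of all probes of a gene was used. Of 11 metallothionein and metal response genes 6 rose and 2 fell (median 0.54), among them Slc39a14, a zinc and iron importer (9.40-fold), and Mt1 (5.32-fold). Hmox1, heme oxygenase 1, fell by 2.18.

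Clock genes rose in 9 of 18 cases and fell in 3 (7 and 3 past 2-fold, median 0.51). The repressor gene Per2 went from 4.62, 4.60 and 4.41 to 7.73, 7.63 and 7.57, and Nfil3 and Cry1 rose 8.21-fold and 5.93-fold. Dbp, a clock output factor, fell by 3.50 ± 0.081 from 13.33, 13.51 and 13.43 to 9.92, 9.85 and 9.98. Nr1d2, which encodes REV-ERB beta, fell by 2.07.

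In energy metabolism, 10 of 23 glycolysis genes rose and 7 fell (median 0.14). Hk2, hexokinase 2, went from 6.88, 6.94 and 6.87 to 11.52, 11.33 and 11.28, which is 22.3-fold, and Slc2a1, the glucose transporter GLUT1, rose 2.32-fold. The muscle-type phosphofructokinase Pfkm fell by 2.28 while the liver type Pfkl rose 2.68-fold. Of 62 oxidative phosphorylation genes 34 rose and 14 fell (median 0.34), which became 23 and 23 with a median of 0.02 after quantile normalization. Cycs, cytochrome c, rose 2.88-fold. Of 34 proteasome genes 6 rose and 8 fell (median -0.09), and after scaling to the 75th percentile 18 fell.

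Further lists concern RNA itself. Of 33 mRNAs with known translational control elements 24 rose and 4 fell (13 and 3 past 2-fold, median 0.86). Amd1, which makes decarboxylated S-adenosylmethionine for polyamines and has an upstream reading frame, rose 6.01-fold, and Ifrd1 and Myc 5.76-fold and 4.67-fold, whereas Slc40a1, the iron exporter with an iron-responsive element, fell by 3.23. Of 42 RNA-binding and decay factors 19 rose and 14 fell (median 0.20, and -0.08 when all probes of a gene were averaged). Tob2, Cnot7 and Btg1, which belong to or recruit the CCR4-NOT deadenylase, rose 5.11-fold, 4.52-fold and 3.22-fold, and Upf3b, a factor of nonsense-mediated decay, fell by 1.82. Of 18 noncoding RNAs and snoRNA host genes on the arrays 7 rose and 4 fell (median 0.21), with the snoRNA hosts Snhg8 and Snhg3 at 3.50-fold and 3.27-fold up and Malat1, a nuclear noncoding RNA, down by 0.79.

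Other list medians also moved with the processing without a change of sign. Quantile normalization gave 0.03 for the tRNA synthetases, 0.40 for the extracellular matrix, 0.46 for the mRNAs with translational control elements, -0.46 for the early adipogenic factors, -0.63 for the other TOP mRNAs and -0.24 for the proteasome. Normexp background correction without spots of uneven background gave 0.32 for the chemokines, cytokines and growth factors, -0.39 for the G1 genes and -0.94 for mitosis. For the interferon-stimulated genes it gave -0.56, and the authors' log2 values gave -0.72.

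**Figure D3:**
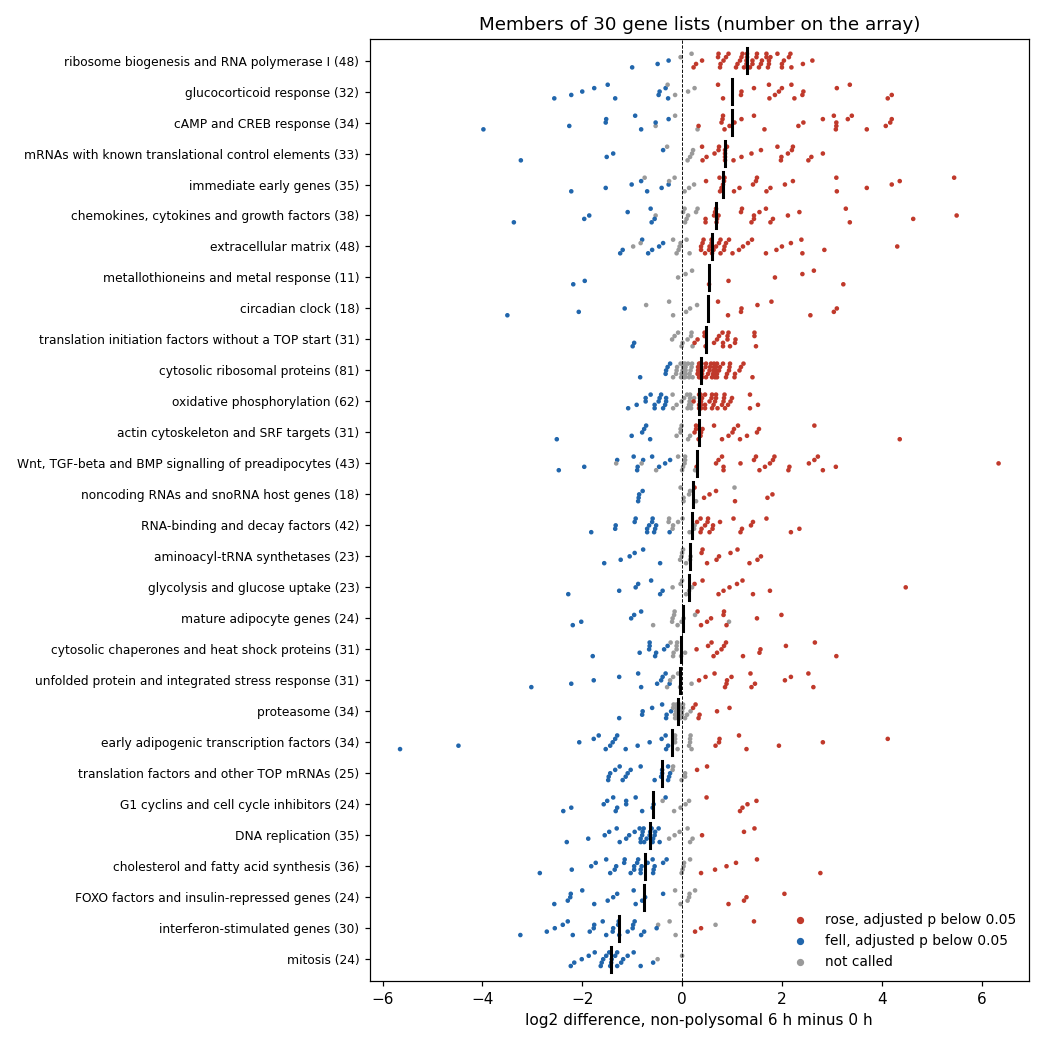
Log2 difference (non-polysomal 6 h minus 0 h) of every member of 30 gene lists, ordered by their median (black bar), with the median of all genes as a dashed line. Ribosome biogenesis (median 1.30) stands at the top and mitosis (-1.42) at the bottom, and most lists hold members of both directions.

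The non-polysomal change was set beside the polysomal change of the same lysates, and their difference was tested gene by gene in the same fit as M, the polysomal change minus the non-polysomal change. In the polysomal fraction 52.5% of genes rose and 14.7% fell, 22.2% and 6.1% more than 2-fold, and M was above 0 for 40.3% and below 0 for 4.51% of genes with an adjusted p below 0.05. These shares depend on the scale, since the spike-ins of the 6 h polysomal arrays lay between -0.478 and -0.207 against 0.050 to 0.18 on the non-polysomal arrays, and their part in M was not tested. With 75th percentile scaling the median M over genes fell from 0.51 to 0.08, with 3798 genes above and 2844 below 0. Of the 1650 genes that rose more than 2-fold in the non-polysomal fraction, 1426 (86.4%) did so in the polysomal fraction, where they were 35.2% of 4049. Of the 1839 that fell, 833 (45.3%) also fell more than 2-fold there, and these were 75% of 1110.

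Among the 30 lists, ribosomal proteins and other TOP mRNAs had the highest median M, at 1.73 and 1.91. Ribosomal protein genes rose in the polysomal fraction in 80 of 81 cases with a median of 2.11, against 0.37 in the non-polysomal fraction, and M was above 0 with an adjusted p below 0.05 for 79 and below 0 for 1. For the other TOP mRNAs the medians were 1.21 and -0.40, and M was above 0 for 25 of 25. With 75th percentile scaling these counts were 77 of 81 and 24 of 25. Eif4b, Impdh2, Ahcy and several ribosomal proteins are among the mRNAs that the study itself reported as shifted to polysomes on these arrays. For that group the study kept only mRNAs with a lower non-polysomal signal at 6 h. Here Eif4b, Impdh2 and Ahcy fell in that fraction, but Rpl27a and Myc, which it also reported, rose by 0.34 and 2.22. The lists were chosen with earlier results of these data known, so the counts are descriptions and not a separate test. Ribosome biogenesis genes had medians of 1.83 and 1.30, with M above 0 for 30 and below 0 for 2, which became 16 and 14 with 75th percentile scaling. Mitosis genes fell in both, with medians of -0.93 and -1.42, with M above 0 for 13 and below 0 for 3 of 24, which became 6 and 8 with 75th percentile scaling. Interferon-stimulated genes had medians of -1.64 and -1.27, with M above 0 for 8 and below 0 for 12 of 30, which became 4 and 18.

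**Figure D4:**
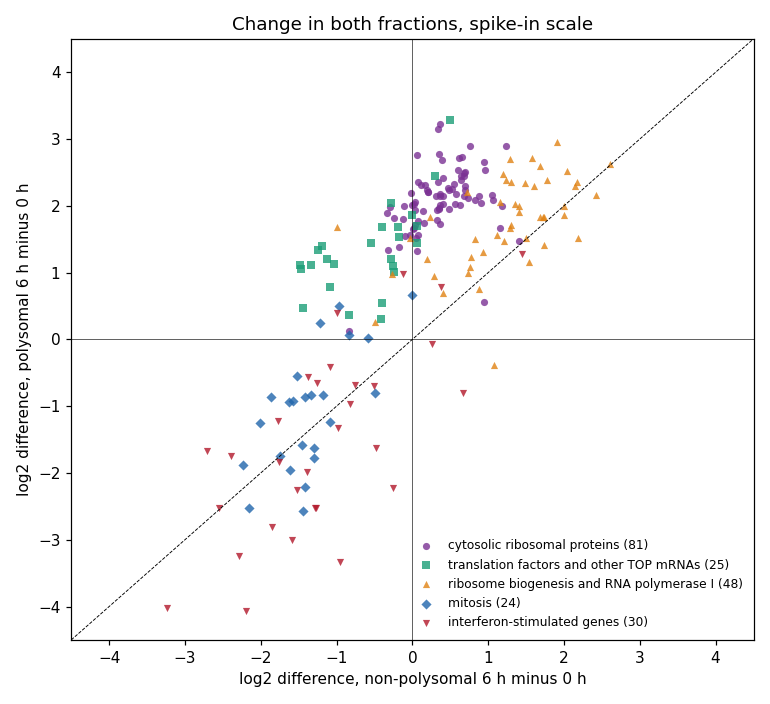
Polysomal against non-polysomal log2 difference (6 h minus 0 h, spike-in scale) of the members of 5 gene lists, with the line of equal change dashed. Ribosomal proteins (medians 0.37 and 2.11) and other TOP mRNAs (medians -0.40 and 1.21) lie above the line, and ribosome biogenesis, mitosis and interferon-stimulated genes lie closer to it.

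Few genes moved more than 2-fold in opposite directions. In all, 35 genes fell in the non-polysomal and rose in the polysomal fraction, and 1, Ptpn22, did the reverse. With 75th percentile scaling these numbers were 5 and 4. The reverse count was 0 with a line fitted to the spike-ins, with the authors' log2 values and with both normexp corrections. Cdkn1c, the cell cycle inhibitor p57, had the largest fitted M of these. Its non-polysomal signals were 5.06, 5.51 and 5.38 at 0 h and 3.12, 3.19 and 2.97 at 6 h. This is a fitted fall by 2.22, against a rise by 2.02 in the polysomal fraction. At 6 h the Cdkn1c probe lay close to the background and passed the scanner software's test on 1 of 3 arrays. The sizes of its fall and of its M are therefore not exact. Krtap3-1, Fmn2, Msi1, Col2a1, Pcsk1n, Mak and Aatk followed. For Msi1, Col2a1 and Pcsk1n the 6 h array of replicate 1 lay above the others, for Col2a1 at 12.73 against 11.26 and 11.36, and for Msi1 the 0 h array of replicate 2 was left out as an outlier. Without replicate 3 the non-polysomal falls of Msi1, Col2a1 and Pcsk1n no longer passed limma's test (adjusted p = 0.081, 0.11 and 0.067), nor did that of Aatk (0.15). Mak and Aatk were not well above background on any 6 h array, so a fall of Mak of at least 1.23-fold is all that can be given and no bound can be given for Aatk. Of the 35 genes, 29 were well above background on all 6 non-polysomal arrays and 5 on no 6 h array.

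The genes that the study measured by q-PCR were looked at singly. Eif4b fell on each of 3 probes (by 1.09, 1.90 and 1.01) and Impdh2 on both of its probes (by 1.19 and 1.21). Rpl27a rose by 0.34 ± 0.091 (adjusted p = 0.013), but it was at -0.04 after quantile normalization, and limma's adjusted p was 0.1 with the replicate block on the 6 arrays and 0.15, 0.086 and 0.051 without replicate 1, 2 and 3. Ube2k, a ubiquitin-conjugating enzyme, rose on 4 probes by 1.16 to 1.89, and Ucp2, a mitochondrial carrier, rose 11.5-fold and 10.6-fold on its brighter probes. Actb, beta-actin, rose by 0.38 ± 0.068. The M of Ube2k and Ucp2 did not pass the test on any of their probes (smallest adjusted p = 0.12).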

How the data were processed

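RNA of the 4 groups was hybridised to 12 one-color Agilent mouse arrays on 3 slides, each slide holding 1 replicate of every group. The replicates are separate samples in the labels and biological replicates in the study's methods. The deposited files hold intensities per spot from Agilent Feature Extraction 10.7.1.1, background-subtracted but not normalized between arrays, beside the median pixel and its background. A deposited table of the authors holds log2 values, the median pixel without background subtraction plus a constant per array.

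Of 45018 spots 1639 controls were left out, and 106 to 221 outlier-marked spots per non-polysomal array were dropped. Repeated spots of a probe (245 probes) were averaged on the log2 scale, and the mean of 10 spike-ins, centred over arrays, was subtracted. For 18 probes no difference could be computed. A symbol was found for 26690 of 41174 probes (64.8%) through RefSeq accessions, and unnamed probes were tested but are not described. A gene was represented by its brightest probe, and of 6472 genes with several probes 227 had probes called in opposite directions. A single fit of all 4 groups was made in R 4.3.3 with limma 3.58.1 (lmFit, eBayes, Benjamini-Hochberg adjustment over all probes) and data.table (version 1.17.8). "At least N-fold" sets the mean of the brighter group against, per array, the higher of the dim probe's signal and the lowest signal rated well above background.

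Genes were named by rule: the 14 largest rises and falls, up to 4 at either end of a list, the genes of opposite directions with the largest M, and the q-PCR genes. Nr4a1, Npm1, Polr1a, Polr1b, Bub1, Ttk and the genes of the promoter windows were named beside these after their values were seen. The members, lists and rules were chosen with earlier results of these data known. One listed name could not be matched to a symbol. Some items that the rule names are not reported here. Same-numbered arrays, which share a slide, deviated together with r of 0.021 to 0.042, so the replicate number was used as a block only as an alternative. Further alternatives were other scalings and background corrections, the authors' values, dim and outlier filters, and leaving out arrays. The fit was tested on simulated data for this comparison (41174 probes). It called 44% of 100 probes with a log2 change of 1 and 85% of 100 with a change of 2. Of these calls 100% were in the right direction, and 8 unchanged probes were called. In this simulation 200 probes were changed, whereas 20.6% of probes rose and 19.6% fell in the data. The rates may therefore not hold for the data. In a simulation without any change 0 were called.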

Additional observations from a re-analysis of the deposited data

Results flagged for a closer look

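The items below were singled out because the change in the non-polysomal fraction differed from that in the polysomal fraction by the test of M, the polysomal change minus the non-polysomal change, with an adjusted p below 0.05 in limma. The shares of all genes that pass this test are given in the report, and M depends on the scale of the 6 h polysomal arrays. Among the 28 genes with the largest non-polysomal differences, 9 passed. M was 3.47 for Krt23, 1.96 for Slc16a11 and 0.88 for Ramp3, which rose more in the polysomal fraction, and -1.54 for Syt12 and -3.74 for Mt4, which rose more in the non-polysomal fraction. Mt4 rose by 2.21 in the polysomal fraction. Among the falls M was 2.41 for Inppl1. The fitted M was 1.25 for Dusp8, 4.89 for Arl11 and 3.12 for Adcy7, but these 3 were not well above background on any 6 h non-polysomal array, so the size of M is not measured there. The same holds at 0 h for Krt23 and Mt4. The 0 h arrays of Arl11 and Adcy7 differed widely, as the report gives.

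Of the genes that moved in opposite directions, M was 4.24 for Cdkn1c, 3.54 for Msi1, 3.41 for Krtap3-1, 3.35 for Aatk, 3.31 for Mak, 3.24 for Col2a1, 3.01 for Pcsk1n and 2.96 for Fmn2, and -4.03 for Ptpn22. For Mak and Aatk these are fitted values against 6 h arrays near the background, and a fall past 2-fold was not measured. The M of Cdkn1c is a fitted value too and not exact. Its 6 h non-polysomal signals of 3.12, 3.19 and 2.97 lay close to the background. For Ptpn22 M had an SE of 0.50. Its call past 2-fold in opposite directions was lost with the spike-in line, the authors' log2 values and both normexp corrections. Of the q-PCR genes M was 2.82 for Rpl27a, 1.88, 2.94 and 1.73 for the probes of Eif4b, 2.59 and 2.65 for those of Impdh2, and -0.82 for Actb.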

How the results depend on the processing

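Of 259 named probes, 233 kept their direction and their side of the threshold under each of 20 alternatives. Over all named probes and alternatives 5083 values did so, 92 kept the direction but no longer passed, and 2 changed sign, both after quantile normalization, Rpl27a at -0.04 and Eef1b2 at -0.01. With normexp background correction on all spots, 774 probes rose and 690 fell, 736 and 669 of them more than 2-fold, 6 genes fell in the non-polysomal and rose in the polysomal fraction, and the difference of the array medians was -1.2. That correction failed on 1 of the 0 h arrays, so it was not run for single genes and lists. It failed on some polysomal arrays too, so its count of genes of opposite directions rests on fewer arrays in both fractions. Leaving spots with uneven background out of its fit, which was chosen after seeing the data, gave 1771 rises and 1125 falls past 2-fold and 20 genes of that opposite kind. The authors' log2 values, which keep the background, gave 2065 and 1628 past 2-fold. In the main fit 35 genes were down in the non-polysomal and up in the polysomal fraction, and 1 went the other way. There were 5 and 4 when arrays were scaled to the 75th percentile, and 3 and 2 after quantile normalization. When each array was fitted by a line to its spike-ins, 225 were of the first kind and 0 of the second. The second kind held 0 genes too with the authors' log2 values and with both normexp corrections. It held 2 both without dim probes and with a trend in the prior variance. Leaving out arrays gave 6733 to 8402 rises and 6201 to 7815 falls, 3066 to 3556 and 2976 to 3593 past 2-fold, and 26 to 47 and 1 to 3 genes of opposite directions, the 3 without replicate 3. With a replicate block over 12 arrays 8392 probes rose and 7966 fell, and with a replicate block over the 6 non-polysomal arrays 7310 and 6765. Every one of the 6 arrays deviated most like the array of its own number, with which it shares a slide, and the main fit holds no such block. Probes near the background carry bounds only: 517 probes that rose more than 2-fold were not well above background on any 0 h array, and 804 that fell were not so on any 6 h array.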

Other observations

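Some gene families were picked by their symbols after the values had been seen, so their counts are descriptions. Over all genes 24.7% rose in the non-polysomal fraction, and 9.06% did so more than 2-fold. Cystatin A and stefin A genes (symbols Csta, Stfa and Cstdc) encode intracellular protease inhibitors of the skin and of neutrophils. Of 12 on the arrays 8 rose and 1 fell in the non-polysomal fraction, with a fitted median difference of 3.13. None of the 8 that rose was well above background on all 3 arrays at 0 h, so the size of this median is not exact. Csta2 and Stfa2, for example, have only bounds, at least 7.7-fold and at least 1.56-fold. The gene that fell was Cstad, which shares only the start of its symbol with the family. Their close sequence similarity means that the probes may not be independent. Of 27 small proline-rich and late cornified envelope genes (Sprr and Lce), known from the outer skin, 9 rose (33.3%) and 3 fell. Their median difference was -0.03, so the family as a whole did not rise. The rises past 2-fold included Lce1f (4.89), Lce1g (3.49), Lce1i (3.28), Lce1e (3.00) and Lce1h (2.91). Among 40 keratin genes 5 rose and 4 fell, a share of 12.5% that rose, below that of all genes, and Krt23, Krt15 (4.77) and Krt13 (4.59) were highest.

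All 5 genes annotated as snoRNAs on the arrays rose in the non-polysomal fraction, Snora69 3.54-fold, Snord35b 2.97-fold, Snora3 2.83-fold, Snord33 2.68-fold and Snord123 1.91-fold. For Snord33 the 0 h array of replicate 1 was left out as an outlier. A probe of a snoRNA may also read its host transcript. The probe of the 28S ribosomal RNA, Rn28s1, differed by -0.11 ± 0.10 in the non-polysomal fraction (adjusted p = 0.46 by limma). In the polysomal fraction it differed by -1.35. Signals are per amount of RNA, so this probe does not give the rRNA content of a fraction. Of 886 olfactory receptor genes, most of them dim, 38 rose and 22 fell in the non-polysomal fraction, and 401 (45.3%) rose and 5 fell in the polysomal fraction, where 52.5% of all genes rose. M was above 0 for 138 and below 0 for 5 of them, which became 25 and 15 with 75th percentile scaling.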
